A study of Mus musculus with 3 samples.

Results

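The genes examined were Igf1, the 2 IGF receptors Igf1r and Igf2r, and the IGF binding protein genes Igfbp2, Igfbp3, Igfbp4, Igfbp5, Igfbp6 and Igfbp7, followed across the direct reprogramming of mouse cardiac fibroblasts into induced cardiomyocytes (iCMs). They were found by gene symbol, and all 9 were present among the 54532 genes of the count and FPKM tables. FPKM is the number of read fragments scaled to the length of the gene and to the size of the library. The set was selected with values of these same libraries known, namely the low Igfbp3 level of GMTMS-iCMs and a direction of Igfbp5 that turned with the scaling, so its differences between GMTMS-iCMs and the other libraries are a description and carry no test. All 9 genes had at least 10 counts in at least 1 library, and they are part of the 15702 genes that passed this minimum.

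The cells were MICFs, cardiac fibroblasts taken from the infarcted tissue of Myh6-mCherry mice 5 days after the left anterior descending artery was permanently tied off, in mice that were 8 weeks old at surgery. In these mice the Myh6 promoter drives mCherry in cardiomyocytes. GMTMS-iCMs were MICFs transduced with Gata4, Mef2c, Tbx5, Myocd and Sall4. The GMTMM cocktail holds Mesp1 in place of Sall4. Both groups of transduced cells were kept for 4 weeks in induction medium with doxycycline at 1 μg/ml and sorted for mCherry, and RNA of 5 sorted samples was combined into 1 library for each cocktail. MICFs without virus, collected after an equal time in culture, gave 1 library with no mCherry sort named for it. With 1 library per condition no spread between replicates exists and no difference could be tested. Intervals given below are 95% Clopper-Pearson intervals, which cover counting error only.

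Total counts were between 10624118 and 11904484 per library. Sall4 was at 0 counts in MICFs and at 1190 in GMTMS-iCMs. Under the GMTMM label it had 1060, and Mesp1 had 0 counts in all 3 libraries, which goes against that label. That library is therefore called the library labelled GMTMM. The sum of 4 Y-linked genes was 0 counts in MICFs and above 0 in both iCM libraries, at 1630 for GMTMS and 1926 for the library labelled GMTMM. The labels do not give the sex of the mice, and its part in the results was not tested. Of 12 cardiomyocyte markers, 4 were at 0 counts in MICFs and none was at 0 in either iCM library. Fibroblast markers were present in MICFs, with 648 FPKM of Col3a1 and 277 of Col1a1, and so were macrophage markers, with 6135 FPKM of Lyz2 and 1149 of C1qb. Where 3 values of a gene follow one another, the first is that of MICFs, the second that of GMTMS-iCMs and the third that of the library labelled GMTMM.

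Insulin-like growth factors are secreted hormones that drive growth and survival through the receptor tyrosine kinase encoded by Igf1r. Secreted IGF binding proteins hold most of the ligand outside cells, prolong its life and either block or favour its access to the receptor, and proteases release it by cutting them. In the heart, fibroblasts, endothelial cells and macrophages are among the producers of these proteins, and cardiomyocytes respond to the ligand.

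The promoters of the 3 genes with the highest FPKM in MICFs and of Igfbp5 are printed first, because the results below turn on these 4 genes. Each sequence is the 250 bases before the RefSeq transcription start on GRCm38.p6, 5′ to 3′ on the strand of the gene. Capitals mark a TATA box in Igfbp4 and GC boxes in Igfbp7.
Igfbp3, chr11:7213924-7214173, minus strand: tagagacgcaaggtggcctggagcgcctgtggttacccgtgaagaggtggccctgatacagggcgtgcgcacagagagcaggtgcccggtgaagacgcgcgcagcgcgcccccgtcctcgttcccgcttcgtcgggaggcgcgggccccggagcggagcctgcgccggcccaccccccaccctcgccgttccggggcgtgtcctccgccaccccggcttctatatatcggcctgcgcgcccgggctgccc
Igfbp7, chr5:77408046-77408295, minus strand: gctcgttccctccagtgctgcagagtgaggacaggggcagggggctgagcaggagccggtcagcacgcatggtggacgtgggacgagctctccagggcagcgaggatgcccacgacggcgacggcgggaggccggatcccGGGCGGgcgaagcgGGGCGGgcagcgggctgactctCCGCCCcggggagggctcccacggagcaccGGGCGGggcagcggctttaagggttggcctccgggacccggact
Igfbp4, chr11:99040994-99041243, plus strand: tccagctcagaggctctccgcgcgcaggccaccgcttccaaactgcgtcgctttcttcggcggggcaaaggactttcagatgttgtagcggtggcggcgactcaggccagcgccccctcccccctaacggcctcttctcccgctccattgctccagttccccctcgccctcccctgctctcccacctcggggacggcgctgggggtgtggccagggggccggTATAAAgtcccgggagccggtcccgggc
Igfbp5, chr1:72874866-72875115, minus strand: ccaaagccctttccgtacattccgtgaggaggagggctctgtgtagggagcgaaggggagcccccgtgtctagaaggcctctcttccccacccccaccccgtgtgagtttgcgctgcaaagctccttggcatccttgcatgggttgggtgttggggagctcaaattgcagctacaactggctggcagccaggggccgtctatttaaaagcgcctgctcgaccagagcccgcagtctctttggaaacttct

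Igfbp3, Igfbp4 and Igfbp7 had promoters rich in G and C, at 73.2%, 69.2% and 74% of bases, against 58.8% in Igfbp5 and a median of 52.4% over 32851 RefSeq promoters. The TATA box was searched only as the exact letters TATAAA on the strand of the gene. These letters lay from -28 to -23 in Igfbp4 and in no other member, and 7.59% of all promoters held them. Variants of the TATA box were not searched, so the other members are not shown to lack one. The GC box, searched as GGGCGG on both strands, occurred 4 times in Igfbp7 between -110 and -39. It also occurred 2 times in Igf1r, 3 times in Igf2r and 3 times in Igfbp2, and 32.7% of all promoters held at least 1. Motifs bound by reprogramming factors and their partners were also searched on both strands: the GATA motif AGATAA, the T-box motif AGGTGT, the CArG box and the MEF2 box. They were held by 9.99%, 11.8%, 1.47% and 0.508% of all promoters and by no window of the 9 genes, which says only that these letters are not there.

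The 2 most abundant members in MICFs were Igfbp3 and Igfbp7, whose FPKM ranked 21st and 26th among all genes of the library. In GMTMS-iCMs Igfbp3 was 39.9-fold lower, Igfbp2 13.2-fold, Igfbp7 6.02-fold, Igfbp4 3.46-fold, Igfbp6 2.63-fold and Igf1r 2.03-fold, whereas Igf1, Igf2r and Igfbp5 lay within 1.32-fold of MICFs. The library labelled GMTMM kept all 6 binding protein genes at or above the MICFs level in FPKM, though on the main scale defined below Igfbp3 and Igfbp4 were slightly under it. Together the 9 genes took 0.756% of all counts in MICFs and 0.157% in GMTMS-iCMs. Their share was 0.800% for the library labelled GMTMM. In bulk libraries such as these, fewer cells of a type and less RNA per cell cannot be told apart.

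**Figure D1:**
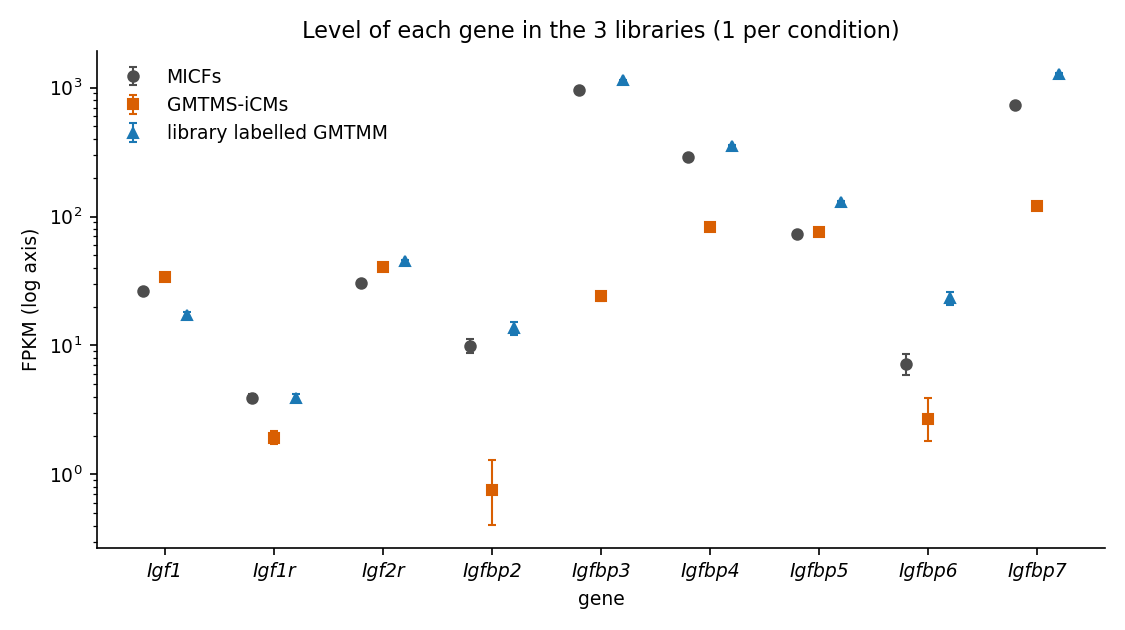
FPKM on a log axis of the 9 genes in the 3 libraries, with 95% counting intervals as bars (1 library each). Igfbp3 sits at 960 and 1141 FPKM in MICFs and the library labelled GMTMM and at 24.0 in GMTMS-iCMs. Igf2r lies between 30.5 and 44.9 FPKM.

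Igf1 (ENSMUSG00000020053, chromosome 10, 87858265 to 87937042 on GRCm38) encodes the ligand itself. It had 3744 counts (26.3 FPKM) in MICFs, 3141 (34.1 FPKM) in GMTMS-iCMs and 1998 (17.3 FPKM) in the library labelled GMTMM. GMTMS-iCMs were thus the highest and the library labelled GMTMM the lowest in FPKM. The FPKM ratio of GMTMS-iCMs to MICFs was 1.30 (1.24 to 1.36), and on the main scale, log2 of quantile-normalized FPKM plus 1, the difference was -0.03. It turned to 0.37 without quantile normalization, so a direction cannot be given for it. The library labelled GMTMM stood at 0.657 (0.622 to 0.694) of the MICFs level, a difference of -0.91 on the main scale that stayed negative in 8 of 8 alternative settings. Several of these settings share most of their scaling, so they are not 8 separate checks. The 12 macrophage markers had a median difference from MICFs of -0.67 in that library, where 4 were lower by over 1, and of 0.27 in GMTMS-iCMs. Their part in the Igf1 result was not tested. Igf1os, an antisense gene that overlaps Igf1 and shares no exon bases with it, had 7, 2 and 2 counts.

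Igf1r (ENSMUSG00000005533, chromosome 7, 67952827 to 68233668) encodes the signalling receptor and was the least abundant member of MICFs per length. Its 947 counts (3.92 FPKM) in MICFs stood beside 301 (1.93 FPKM) in GMTMS-iCMs and 773 (3.94 FPKM) in the library labelled GMTMM. GMTMS-iCMs were therefore the low library, 2.03-fold (1.78 to 2.32) under MICFs in FPKM. On the main scale this was -0.62, inside the difference of 1 used here to call a gene higher or lower. On 3 scalings of the counts it lay beyond 1, at -1.10 with TMM, -1.02 with DESeq2 size factors and -1.46 by library total. The library labelled GMTMM and MICFs had an FPKM ratio of 1.01 (0.913 to 1.11), which includes 1. By library total this ratio was 0.813 (0.739 to 0.895), which leaves out 1.

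Igf2r (ENSMUSG00000023830, chromosome 17, 12682406 to 12769664) encodes the mannose 6-phosphate receptor, which carries lysosomal enzymes and removes IGF2 from the cell surface. Its 4082 counts (30.5 FPKM) in MICFs compared with 3484 (40.3 FPKM) in GMTMS-iCMs and 4887 (44.9 FPKM) in the library labelled GMTMM. The ratio of GMTMS-iCMs to MICFs was 1.32 (1.26 to 1.38) in FPKM, and the main-scale difference of -0.02 became 0.39 without quantile normalization. On the main scale the library labelled GMTMM was above MICFs by 0.17. Within a library, where no scaling between libraries enters, Igf2r exceeded Igf1r 7.78-fold (7.24 to 8.35) in MICFs, 20.9-fold (18.6 to 23.6) in GMTMS-iCMs and 11.4-fold (10.6 to 12.3) in the library labelled GMTMM. The 3 intervals of this FPKM ratio do not overlap. Its size also depends on the gene lengths used, 9308 bases for Igf2r and 16791 for Igf1r, which the intervals do not cover. Airn, an antisense RNA that overlaps Igf2r but shares no exon bases with it, had 114, 66 and 92 counts.

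Igfbp3 (ENSMUSG00000020427, chromosome 11, 7206086 to 7213923) encodes the chief carrier of IGFs in blood. Its 43256 counts (960 FPKM) in MICFs and 41721 (1141 FPKM) in the library labelled GMTMM stood against 699 (24.0 FPKM) in GMTMS-iCMs. GMTMS-iCMs alone were low, and the rank of the gene by FPKM went from 21st in MICFs to 2212th there and 22nd in the library labelled GMTMM. The 39.9-fold lower FPKM (37.1 to 43.1) was a difference of -5.69 on the main scale, which stayed between -5.77 and -5.26 over all settings tried. This is one of the values by which the genes were selected. Between the library labelled GMTMM and MICFs the difference was -0.02, a value that kept its sign in 5 of 8 alternatives. The difference of GMTMS-iCMs from the library labelled GMTMM was -5.67.

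Igfbp7 (ENSMUSG00000036256, chromosome 5, 77349240 to 77408041) encodes a secreted protein of the blood vessel wall that binds IGFs only weakly. It had 12720 counts (731 FPKM) in MICFs, 1364 (121 FPKM) in GMTMS-iCMs and 17933 (1270 FPKM) in the library labelled GMTMM. By FPKM it was the highest member of both iCM libraries, and again GMTMS-iCMs were the low library. The difference was -3.20 between GMTMS-iCMs and MICFs, a 6.02-fold lower FPKM (5.69 to 6.37), and 0.50 between the library labelled GMTMM and MICFs. In its gene model 85 exon bases (7.03%) lie over exons of Polr2b on the opposite strand, which had 913, 466 and 628 counts, and strand use in counting is not given in the sources used here. Polr2b counts were below those of Igfbp7 in every library.

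Igfbp4 (ENSMUSG00000017493, chromosome 11, 99041244 to 99054392) encodes a binding protein that holds IGFs away from the receptor until the protease PAPP-A cuts it. The gene had 18235 counts (287 FPKM) in MICFs, 3402 (82.9 FPKM) in GMTMS-iCMs and 18154 (352 FPKM) in the library labelled GMTMM. GMTMS-iCMs were 3.46-fold (3.34 to 3.59) lower than MICFs in FPKM, a main-scale difference of -2.49. For the library labelled GMTMM the direction depended on the scaling, at -0.38 on the main scale and 0.29 as the highest value over the alternatives.

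Igfbp2 (ENSMUSG00000039323, chromosome 1, 72824503 to 72852474) encodes a binding protein that also attaches to integrins. Its counts were low: 265 (9.97 FPKM) in MICFs, 13 (0.758 FPKM) in GMTMS-iCMs and 293 (13.6 FPKM) in the library labelled GMTMM. The 13 counts give a wide interval, and Igfbp2 was 13.2-fold lower (7.56 to 25.0) in GMTMS-iCMs than in MICFs. The main-scale difference was -2.67, and that of the library labelled GMTMM from MICFs was 0.28. Igfbp2 and Igfbp5 lie tail to tail on chromosome 1 with 5457 bases between them.

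Igfbp5 (ENSMUSG00000026185, chromosome 1, 72857932 to 72874884) encodes a binding protein that adheres to the extracellular matrix. It had 6324 counts (73.2 FPKM) in MICFs, 4205 (75.4 FPKM) in GMTMS-iCMs and 9144 (130 FPKM) in the library labelled GMTMM. By FPKM the first 2 libraries were level, with a ratio of 1.03 (0.991 to 1.07), and the library labelled GMTMM stood 1.78-fold above MICFs. On the main scale GMTMS-iCMs differed from MICFs by -0.56, and without quantile normalization by 0.04. The 1000 most abundant genes had a median difference between these libraries of -0.12 with quantile normalization and 0.50 without, so the choice between these scales shifts abundant genes by more than the difference of Igfbp5 itself. By counts scaled by library total the difference of Igfbp5 was -0.43. On that scale the median was -0.43 over all tested genes and 0.03 over the 1000 most abundant genes. On each of these scales Igfbp5 thus lay below the median of the 1000 most abundant genes. The direction of Igfbp5 itself in GMTMS-iCMs against MICFs turned with the scale, so none can be given. This scaling dependence is the other value by which the genes were selected.

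Igfbp6 (ENSMUSG00000023046, chromosome 15, 102144362 to 102149511) encodes a binding protein with a preference for IGF2. It had 114 counts (7.12 FPKM) in MICFs, 28 (2.71 FPKM) in GMTMS-iCMs and 301 (23.2 FPKM) in the library labelled GMTMM. The 3 counting intervals do not overlap, and GMTMS-iCMs were the lowest. The library labelled GMTMM was 3.25-fold (2.61 to 4.07) above MICFs, 1.46 on the main scale and beyond 1 in 8 of 8 alternatives. GMTMS-iCMs were 2.63-fold (1.73 to 4.13) below MICFs. That difference of -1.06 lay close to the limit of 1 and was -0.99 when only protein-coding genes entered the normalization.

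**Figure D2:**
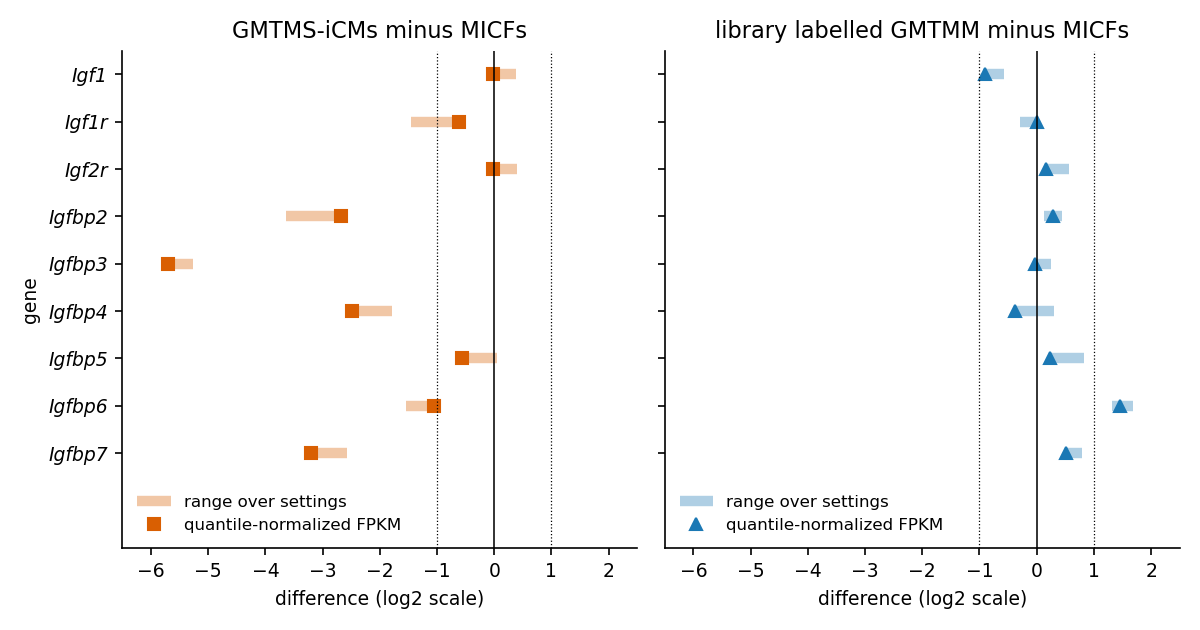
Differences from MICFs of the 9 genes on the log2 scale for GMTMS-iCMs (left) and the library labelled GMTMM (right). Points are quantile-normalized FPKM, bars the range over all settings tried and dotted lines a difference of 1. Igfbp3 lies at -5.69 on the left and -0.02 on the right, and the bar of Igfbp5 in GMTMS-iCMs crosses 0.

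By the limit of 1 on the main scale, 5 of the 9 genes were lower and 0 higher in GMTMS-iCMs than in MICFs, against 8.69% lower and 9.0% higher among all 15702 genes tested. The 5 were Igfbp2, Igfbp3, Igfbp4, Igfbp6 and Igfbp7, and the same 5 were called when the library labelled GMTMM was left out of the normalization. The genes were selected on this contrast, so nothing is read from the count. Between the library labelled GMTMM and MICFs, 1 gene was higher, Igfbp6, and 0 were lower, beside 6.43% and 3.53% of all tested genes. In GMTMS-iCMs against the library labelled GMTMM, 0 were higher and 5 lower, beside 6.11% and 9.07% of all tested genes. The 3 comparisons share libraries, so their counts are not independent of each other. The median difference of the 9 genes was -1.06, 0.17 and -2.12 in the 3 comparisons, in this order, beside medians of -0.07, -0.08 and 0.06 over all tested genes.

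**Figure D3:**
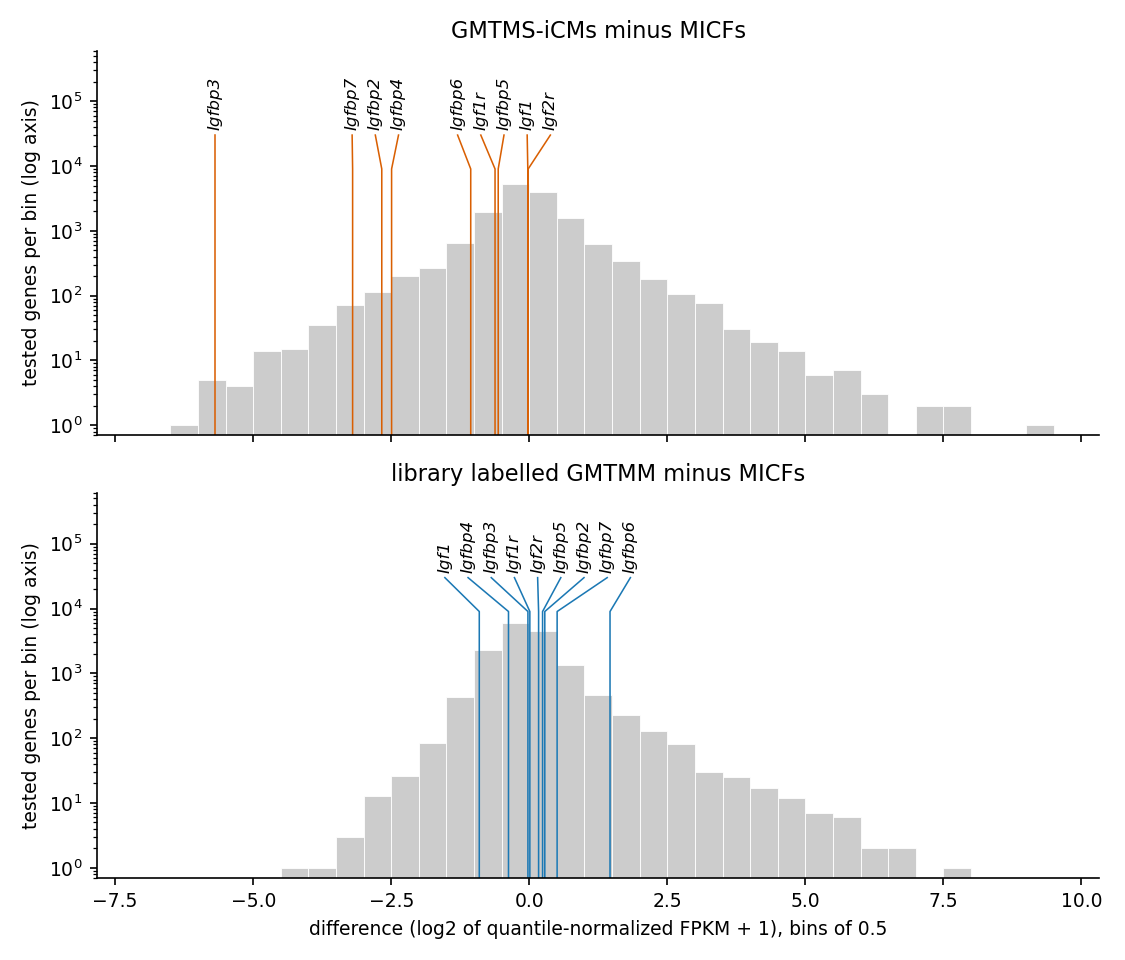
Number of tested genes (log axis) by their difference from MICFs on the log2 scale, in bins of 0.5, for GMTMS-iCMs and the library labelled GMTMM. Coloured lines mark the 9 genes. Igfbp3, Igfbp7, Igfbp2, Igfbp4 and Igfbp6 lie left of -1 in GMTMS-iCMs, and only Igfbp6 lies beyond 1 in the library labelled GMTMM.

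The make-up of the binding protein transcripts within each library does not depend on how libraries are scaled to one another. The FPKM of the 6 genes summed to 2069, 307 and 2930 (MICFs first, GMTMS-iCMs second). The share of Igfbp3 was 46.4% (46.1 to 46.8) of this sum in MICFs, 7.82% (7.28 to 8.40) in GMTMS-iCMs and 38.9% (38.6 to 39.3) in the library labelled GMTMM. The share of Igfbp5 went the other way, with 3.54% (3.45 to 3.63), 24.5% (23.8 to 25.3) and 4.45% (4.36 to 4.54). Igfbp4 likewise took its highest share in GMTMS-iCMs, at 27.0% (26.2 to 27.8) against 13.9% (13.7 to 14.1) in MICFs and 12.01% (11.8 to 12.2) in the library labelled GMTMM. Shares of a sum are tied, so a low Igfbp3 raises the shares of the other genes. By FPKM Igfbp5 was level between MICFs (73.2) and GMTMS-iCMs (75.4), and Igfbp4 was 3.46-fold lower in GMTMS-iCMs. Igfbp7 held the most even share of the abundant genes, at 35.3%, 39.5% and 43.3%. Igfbp2 and Igfbp6 each stayed under 1% in every library.

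Ratios of single binding protein genes rest on the same counts as these shares and are not a second result. Igfbp3 and Igfbp5 are also the genes by whose values the set was selected. Per length, Igfbp3 exceeded Igfbp5 13.1-fold (12.8 to 13.5) in MICFs and 8.76-fold (8.56 to 8.96) in the library labelled GMTMM, but had 0.319 (0.294 to 0.346) of its level in GMTMS-iCMs. The ratio of Igfbp3 to Igfbp4 was 3.35 (3.29 to 3.41), 3.24 (3.19 to 3.30) and 0.290 (0.267 to 0.315) in MICFs, the library labelled GMTMM and GMTMS-iCMs. Igfbp7 exceeded Igfbp5 9.99-fold in MICFs and 9.74-fold in the library labelled GMTMM, and 1.61-fold (1.51 to 1.71) in GMTMS-iCMs. The ligand stood 6.70-fold (6.24 to 7.21) above Igf1r in MICFs, 17.7-fold (15.7 to 20.0) in GMTMS-iCMs and 4.38-fold (4.03 to 4.77) in the library labelled GMTMM.

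In MICFs the FPKM order ran Igfbp3, Igfbp7, Igfbp4, Igfbp5, Igf2r, Igf1, Igfbp2, Igfbp6 and Igf1r. In GMTMS-iCMs it was Igfbp7, Igfbp4, Igfbp5, Igf2r, Igf1, Igfbp3, Igfbp6, Igf1r and Igfbp2, so that Igfbp3 moved below the receptor Igf2r and the ligand. The counting intervals of neighbours in these orders overlapped for 1 pair, Igfbp6 and Igf1r in GMTMS-iCMs. These intervals do not cover the gene lengths, on which the orders also rest. By counts Igf1r (947) stood above Igfbp2 (265) and Igfbp6 (114) in MICFs. In GMTMS-iCMs Igfbp5 (4205 counts) stood above Igfbp7 (1364). The library labelled GMTMM began with Igfbp7 and Igfbp3 and kept Igf1r last.

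**Figure D4:**
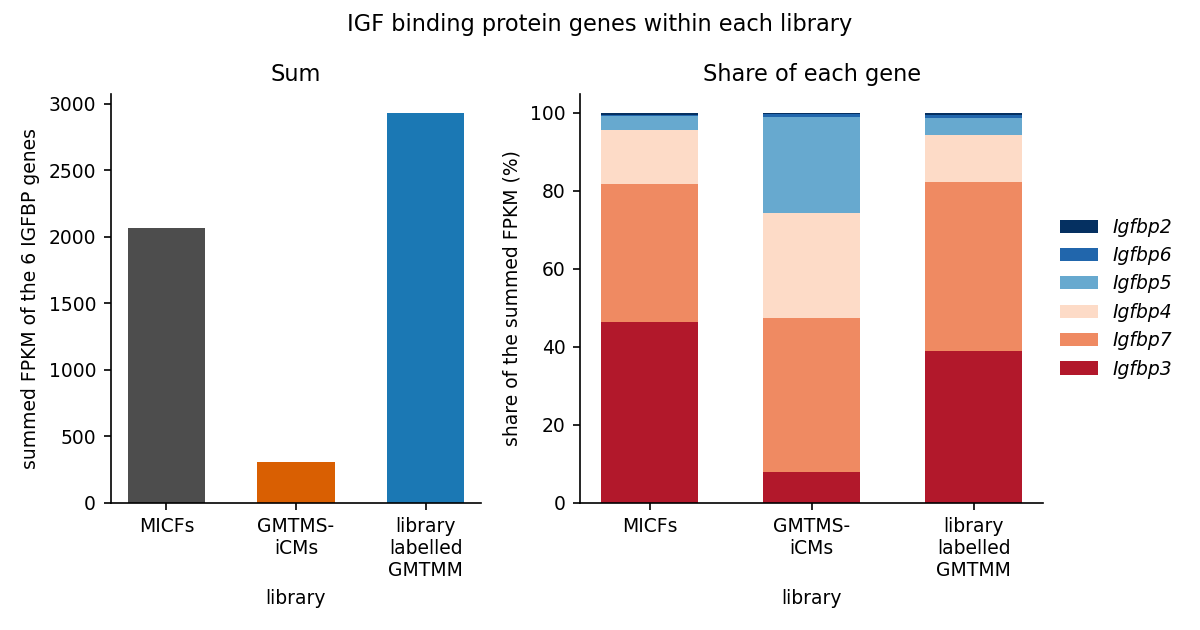
Left, summed FPKM of the 6 IGF binding protein genes in each library, and right, the share of each gene in that sum in percent. GMTMS-iCMs have the lowest sum, 307 FPKM, and Igfbp3 makes up 46.4% of the sum in MICFs and 7.82% there, where Igfbp5 takes 24.5%.

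Of 71 other genes of the IGF pathway, all were in the tables and 59 had at least 10 counts in at least 1 library and could be compared. In GMTMS-iCMs against MICFs 7 were higher and 13 lower by over 1, with a median of -0.14. Among all tested genes 9.0% were higher and 8.69% lower, with a median of -0.07, and each list below is to be read beside these shares. In the library labelled GMTMM 6 were higher and 0 lower, with a median of -0.07, beside 6.43% higher and 3.53% lower among all tested genes. Between the ligands, receptors and carriers outside the 9 genes, 3 of 9 could be compared and 0 passed 1 in either direction. Igf2, the second ligand, had 79 counts in MICFs and 0 in both iCM libraries. Taking the floor of 3 counts in each library, this is at least 17.0-fold lower in GMTMS-iCMs and at least 21.4-fold lower in the library labelled GMTMM, whereas log2(FPKM + 1) gives -0.93 for both because adding 1 shrinks the change of low genes. H19, which lies next to Igf2, had 2736, 22 and 328 counts. The insulin receptor gene Insr had 969, 503 and 595 counts, or 4.90, 3.94 and 3.71 FPKM. Igfbp1, which lies 3539 bases from Igfbp3, had 2, 0 and 1 counts, and Igfals, whose product joins IGFBP3 in blood, had 1, 1 and 5, so both were near the limit of detection.

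Of 13 genes for proteases that cut binding proteins and for their regulators, 10 could be compared. In GMTMS-iCMs 5 of them were lower than in MICFs by over 1 and 0 higher, and the median was -1.32, beside -0.07 over all tested genes. Mmp2, a gelatinase, had 182, 28.8 and 241 FPKM, a difference of -3.23 between GMTMS-iCMs and MICFs. The serine protease gene Htra1 had 80.3, 20.0 and 166 FPKM (-2.46). Plat, which encodes tissue plasminogen activator, had 13.5, 2.12 and 32.0 FPKM (-2.27), and the metalloprotease gene Adam12 had 6.60, 0.692 and 7.74 FPKM (-2.14). All 4 thus had their lowest level in GMTMS-iCMs. The fifth was Stc1, an inhibitor of PAPP-A named here after its values were seen, with 7.20, 1.51 and 35.4 FPKM. It was the 1 gene of this list above MICFs by over 1 in the library labelled GMTMM, at 2.02 on the main scale. The 5 genes that did not pass 1 in GMTMS-iCMs included Pappa, Plau, Ctsd and Adam9, also named after their values were seen. Pappa, which encodes PAPP-A, had 1.80, 0.322 and 1.96 FPKM (-0.99). Its FPKM was 5.59-fold (3.89 to 8.28) lower in GMTMS-iCMs than in MICFs, so it was not unchanged. Adding 1 before log2 shrinks the change of such low genes. Of the 4, all but Pappa had their highest FPKM in GMTMS-iCMs. Plau, which encodes urokinase, had 113, 219 and 179 FPKM (0.27), the cathepsin gene Ctsd had 975, 1342 and 797 FPKM (-0.22), and the metalloprotease gene Adam9 had 93.8, 131 and 91.1 FPKM (-0.14). The summed FPKM of the list was 1474, 1746 and 1553, most of it from Ctsd in each library.

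The CCN family, secreted matrix proteins with a domain like that of the binding proteins, had 5 of 6 genes that could be compared, 4 lower and 0 higher in GMTMS-iCMs, with a median of -1.66, beside 8.69% lower and 9.0% higher among all tested genes. Wisp2 had 75.6, 5.48 and 103 FPKM. The differences of GMTMS-iCMs from MICFs were -3.96 for Wisp2, -2.62 for Nov, -1.66 for Cyr61 and -1.18 for Ctgf. In the library labelled GMTMM 0 of the 5 passed 1, and the median was -0.13.

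Genes that relay the receptor signal lay on both sides of MICFs. Among 13 proximal genes 4 were higher in GMTMS-iCMs and 1 was lower, with a median of 0.28. Socs3, which encodes a feedback inhibitor of cytokine and insulin signalling, had 40.1, 530 and 346 FPKM. The adaptor gene Irs2 had 5.87, 51.7 and 35.1 FPKM, and the phosphatase gene Ptpn1 30.5, 114 and 74.6. Both iCM libraries were above MICFs for these 3 genes. Grb10, which encodes an adaptor that restrains the receptor, was the exception, with 8.66, 1.28 and 6.77 FPKM and a difference of -2.06 in GMTMS-iCMs. Of 22 genes of the PI3K, AKT, mTOR and FOXO step, 1 was higher and 2 lower, with a median of -0.06. They were Pik3cb (1.41), Pik3r3 (-1.74) and the translation repressor gene Eif4ebp1 (-1.08), and in the library labelled GMTMM 0 of the 22 passed 1. Of 4 genes of growth hormone signalling, Jak2 and Stat5a were higher in GMTMS-iCMs, by 2.56 and 2.16, and also in the library labelled GMTMM, by 2.56 and 1.77. The growth hormone receptor gene Ghr was lower in GMTMS-iCMs, at -1.45, with 9.18 FPKM in MICFs and 2.65 there. Of the IGF2 mRNA binding protein genes 2 of 3 could be compared and 0 passed 1.

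Markers of other cell types also differed between the libraries. In GMTMS-iCMs all 12 endothelial markers were below MICFs by over 1, with a median of -4.48, and their summed FPKM was 582, 15.9 and 418. Cdh5 had 204, 4.02 and 147 FPKM and Pecam1 80.8, 1.85 and 67.8. All 12 fibroblast markers were lower as well, with a median of -3.00 and a sum of 1801, 274 and 3288 FPKM. Col3a1 had 648, 71.3 and 1025 FPKM and Col1a1 277, 54.2 and 665. GMTMS-iCMs were thus the low library for both lists, as they were for Igfbp3, Igfbp7 and Igfbp4. Of 10 smooth muscle and pericyte markers 2 were higher and 5 lower, with Acta2 at 182, 300.5 and 445 FPKM and Pdgfrb at 84.5, 8.90 and 114. None of these markers was at 0 counts in any library. Of 12 macrophage markers 2 were higher and 0 lower on the main scale, with sums of 9767, 19032 and 8952 FPKM. Lyz2 had 6135, 11353 and 5496 FPKM and C1qb 1149, 2321 and 1131. In FPKM GMTMS-iCMs were thus 1.85-fold and 2.02-fold above MICFs for these genes, whereas the main-scale differences were 0 and 0.26. Quantile normalization gives genes of equal rank equal values, so it can hide such a rise of the most abundant genes. Cardiomyocyte markers summed to 3.26, 1480 and 555 FPKM, 12 of 12 being higher in GMTMS-iCMs and 11 of 12 in the library labelled GMTMM, with Myl7 at 0, 640 and 248 FPKM and Actc1 at 0.0430, 317 and 122. The part of these cell types in the binding protein results was not tested.

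**Figure D5:**
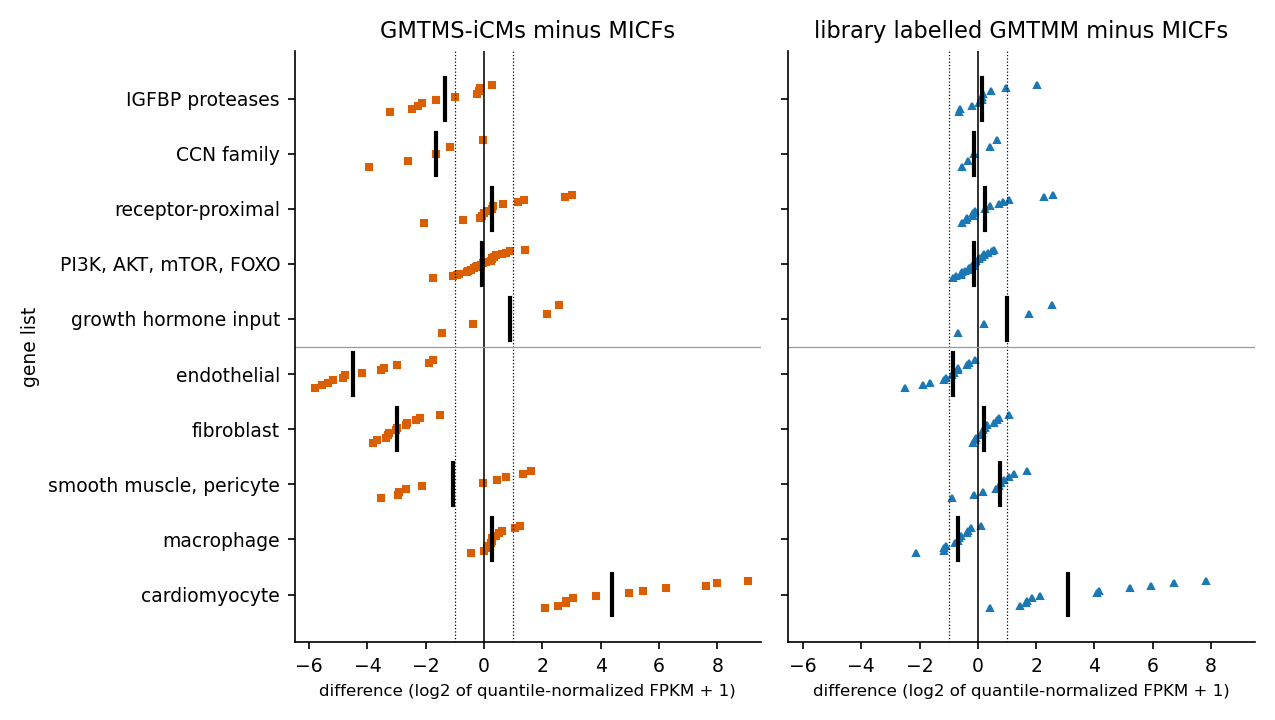
Differences from MICFs on the log2 scale of tested genes of the pathway lists (above the grey line) and of the cell type marker lists (below it), 1 point per gene, black bars at the median and dotted lines at a difference of 1. Endothelial and fibroblast markers have medians of -4.48 and -3.00 in GMTMS-iCMs, and the IGFBP proteases -1.32.

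The genes nearest to Igfbp3 in the pair of differences from MICFs, by Euclidean distance over 12406 genes with a mean FPKM of at least 1, were Chga, Cldn5, Pecam1, Mmrn2 and Pgf, at distances from 0.81 to 1.07 on the log2 scale. Their FPKM lay between 42.0 (Mmrn2) and 94.5 (Chga) in MICFs and between 0.623 (Mmrn2) and 3.00 (Pgf) in GMTMS-iCMs. Cldn5 and Pecam1 are also on the endothelial marker list. Those nearest to Igfbp5 were Carmil1, Spint2, Foxo1, Gm6274 and Ormdl3, at 0.02 to 0.04. This nearness holds on the main scale, where the sign of Igfbp5 is not settled. By FPKM Carmil1 went from 1.20 in MICFs to 0.384 in GMTMS-iCMs and Foxo1 from 4.59 to 2.56, whereas Igfbp5 had 73.2 and 75.4. Both distances rest on 3 libraries that share MICFs, and the pattern of Igfbp5 is close to the centre of all genes, where many genes lie.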

How the data were processed

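RNA of MICFs, of GMTMS-iCMs and of the cells labelled GMTMM was sequenced with paired reads of 150 bases, with 1 library per condition. The authors deposited a table of raw counts per gene and a table of FPKM that they computed from these counts and gene lengths. HISAT2 2.0.5 and the build mm9 are listed in the submitters' processing notes, but the gene coordinates in the tables are GRCm38, since 53462 of 54409 gene identifiers shared with GENCODE M21 have the same coordinates there. The counting tool, annotation and strand setting are not given in the sources used here. The library size behind the deposited FPKM was scaled by size factors, so FPKM ratios of GMTMS-iCMs to MICFs are 1.39 times those of counts scaled by library total (CPM).

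The deposited FPKM were quantile-normalized over the 3 libraries and transformed to log2(FPKM + 1), as the study's methods describe, and a difference over 1 was called higher or lower. Genes with at least 10 counts in at least 1 library were compared. Fold differences are ratios of deposited FPKM. Their intervals are 95% Clopper-Pearson intervals on the 2 counts, and a gene at 0 counts was set to a floor of 3 counts per library, or 0.252 to 0.282 CPM. Of the longest transcripts, 2.00% of the 50-base words of Igfbp4 and 2.43% of those of Igfbp7 occur in other genes, and none in the other members. Alternatives used edgeR 4.0.16 (TMM log2 CPM) and DESeq2 1.42.0 (size factors) under R 4.3.3, with Python 3.11.15, pandas 2.3.3 and SciPy 1.17.1. Several alternatives are small changes of the same quantile-normalized FPKM, and the library sizes behind the deposited FPKM follow the DESeq2 size factors. The number of alternatives that keep a sign is therefore not a number of separate checks. No alternative tested a difference.

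The genes, the pathway and marker lists and the rules were chosen with earlier results of these data known. Named pathway genes are Igf2, Insr, Igfbp1, Igfals, Grb10 and up to 4 per list with the largest difference over 1 in GMTMS-iCMs. From each marker list the 2 most abundant genes are named, and for Igfbp3 and Igfbp5 the 5 genes nearest in their differences from MICFs. Stc1, Pappa, Plau, Ctsd and Adam9 were named after their values were seen. Promoter sequences are from RefSeq on GRCm38.p6 and matched all 9 genes. Protein sequences are not used here.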

Additional observations from a re-analysis of the deposited data

Results flagged for a closer look

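On the main scale 6 genes had a negative difference from MICFs in GMTMS-iCMs and a positive one in the library labelled GMTMM. For Igfbp2, Igfbp6 and Igfbp7 both FPKM ratios had the same opposite directions with counting intervals that leave out 1. Both signs held in every alternative. By library total, however, the interval of the Igfbp2 ratio of the library labelled GMTMM to MICFs (293 against 265 counts) includes 1. Whether this interval leaves out 1 thus depends on the scaling. Igfbp2 differed from MICFs by -2.67 in GMTMS-iCMs and by 0.28 in the library labelled GMTMM. Igfbp6 differed by -1.06 and 1.46, and Igfbp7 by -3.20 and 0.50. The other 3 were Igfbp5 (-0.56 and 0.24), Igf1r (-0.62 and 0.01) and Igf2r (-0.02 and 0.17), for each of which 1 of the 2 signs turned in some alternatives. Both differences of each gene share the MICFs library and each condition has 1 library, so the contrast between these directions was not tested. Igfbp6 rests on the fewest counts in MICFs, 114, and Igfbp2 on the fewest in GMTMS-iCMs, 13.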

How the results depend on the processing

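No paired analysis was possible because no group has a second library. Among the differences of the 9 genes under other settings, 162 moved by less than their counting interval and 63 moved further, and 0 of those beyond 1 changed sign. The number of the 9 genes beyond 1 stayed within 1.5 times of the reported one in 55 values and not in 1. The exception was the library labelled GMTMM against MICFs, where 0 were higher by over 2. Low counts limit Igfbp2 and Igfbp6.

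The number of all tested genes beyond the limit depended more on the setting. In GMTMS-iCMs against MICFs, higher and lower genes numbered 2300 and 2724 with a pseudocount of 0.1, 2321 and 3274 with TMM log2 CPM, 2572 and 3148 with DESeq2 size factors, and 444 and 458 at a difference over 2. For the library labelled GMTMM against MICFs they were 1947 and 1677, 2171 and 1728, 2286 and 1727, and 312 and 44. For GMTMS-iCMs against the library labelled GMTMM they were 1915 and 2477, 1709 and 3001, 1948 and 2971, and 20 and 497. By library total, lower genes numbered 3772, 1865 and 2441 in the 3 comparisons. The median of the pathway genes was -0.61 by library total in GMTMS-iCMs against MICFs, while that of the library labelled GMTMM minus MICFs came to 0.14 with no quantile step, 0.15 by TMM and 0.18 by DESeq2 size factors. A pseudocount of 0.1 raises low genes past the limit by construction, and a limit of 2 on the same scale cannot call more genes. For the other settings the cause was not tested.

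As shares of counts, not divided by gene length, Igfbp3 made up 53.5% of the 6 binding protein genes in MICFs and 7.20% in GMTMS-iCMs, and Igfbp5 7.82% and 43.3%. Igfbp7 made up 15.7% and 14.0% by counts, and Igfbp4 22.5% and 35.0%. Igfbp7, the highest of the 6 in GMTMS-iCMs by FPKM, was thus below Igfbp5 and Igfbp4 there by counts. Over shares of counts and FPKM shares without Igfbp7, 31 values moved beyond their counting interval and 2 did not.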
